A study of Mus musculus with 3 samples.

Results

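The genes described here are the Myc family (Myc, Mycn and Mycl), the RNA-binding proteins Lin28a and Lin28b, the Igf2bp family (Igf2bp1, Igf2bp2 and Igf2bp3) and the chromatin proteins Hmga1 and Hmga2, which are made in embryonic tissues and return in many tumours. They were chosen by name, and every probe set that the platform annotation gives to 1 of these 10 symbols was used. This gave 24 probe sets of 8 genes, among 45037 probe sets and 18193 genes on the array. Igf2bp2 and Hmga1 had no probe set under this rule and were not analysed here. The RNA came from cells of E15.5 kidneys (Theiler stage 23) of fetal CD-1 mice that carried the transgene Tg(Meis1-EGFP)FO156Gsat, in which the control elements of Meis1 drive a green fluorescent protein. Cells with that protein were sorted from pools of about 20 kidneys of unknown sex, and each of 3 arrays held the RNA of 1 pool. For every pool the kidneys were treated with trypsin for 5 minutes at 37 °C and passed through a 70 micron mesh. All arrays belong to this 1 group, with no unsorted kidney or other control, and each gene was asked only whether it exceeded the background of its array. The labels call the sorted cells both peripheral blastema and nephrogenic interstitium, which is stroma of the outer kidney.

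Myc, Mycn and Mycl are transcription factors that pair with Max on the E-box, a short DNA motif, and raise genes of ribosome production, metabolism and the cell cycle. Lin28a and Lin28b bind the precursors of the let-7 microRNAs and block their maturation. Mature let-7 in turn lowers transcripts such as Lin28b, Hmga2, Igf2bp1 and Mycn, so high Lin28 and low let-7 mark early embryonic cells. In the mouse kidney Mycn and Lin28b are known from nephron progenitors, and both are known from Wilms tumour, the embryonal tumour of the human kidney.

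The let-7 family ties these genes together, so its mature sequences are shown with the seed, bases 2 to 8, in capitals (RefSeq, build GRCm38.p6). The microRNAs themselves were not measured on these arrays.
let-7a-5p: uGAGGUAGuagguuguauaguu
let-7b-5p: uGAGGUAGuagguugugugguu
let-7c-5p: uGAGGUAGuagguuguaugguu
let-7d-5p: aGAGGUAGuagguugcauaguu
let-7e-5p: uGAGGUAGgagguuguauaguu
let-7f-5p: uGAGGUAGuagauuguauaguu
let-7g-5p: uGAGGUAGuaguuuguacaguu
let-7i-5p: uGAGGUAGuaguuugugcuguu
let-7k: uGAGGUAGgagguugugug
miR-98-5p: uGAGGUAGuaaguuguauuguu
let-7j: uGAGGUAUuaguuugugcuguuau
A single seed is shared by 10 of these 11 sequences, and let-7j has another.

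Of the 8 genes measured, 6 were above background (Igf2bp1, Igf2bp3, Hmga2, Myc, Mycn and Mycl) and 2 were not (Lin28a and Lin28b). Over the whole array 56.4% of genes were above background at their brightest probe set, so a count of 6 in 8 is no result about the group as such. Counted by probe set, 15 of 24 were above background, against 42.0% of all probe sets. The background level of an array is the 95th percentile of the signals of 72 chemosensory receptor genes, which are made in sensory neurons. It was a signal of 135, 185 and 168 in replicates 1, 2 and 3. A distance below is the log2 signal minus that level, averaged over the 3 arrays (n = 3). Its SE is the moderated one of limma, which also draws on the spread of all other probe sets. A gene was called above background where the one-sided limma test, adjusted over all probe sets, gave a p below 0.05. Probe sets differ in how well they bind, so distances do not rank the genes, and a gene not above background is not shown to be absent. In a sorted pool, fewer cells with a transcript and less of it per cell cannot be told apart.

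**Figure D1:**
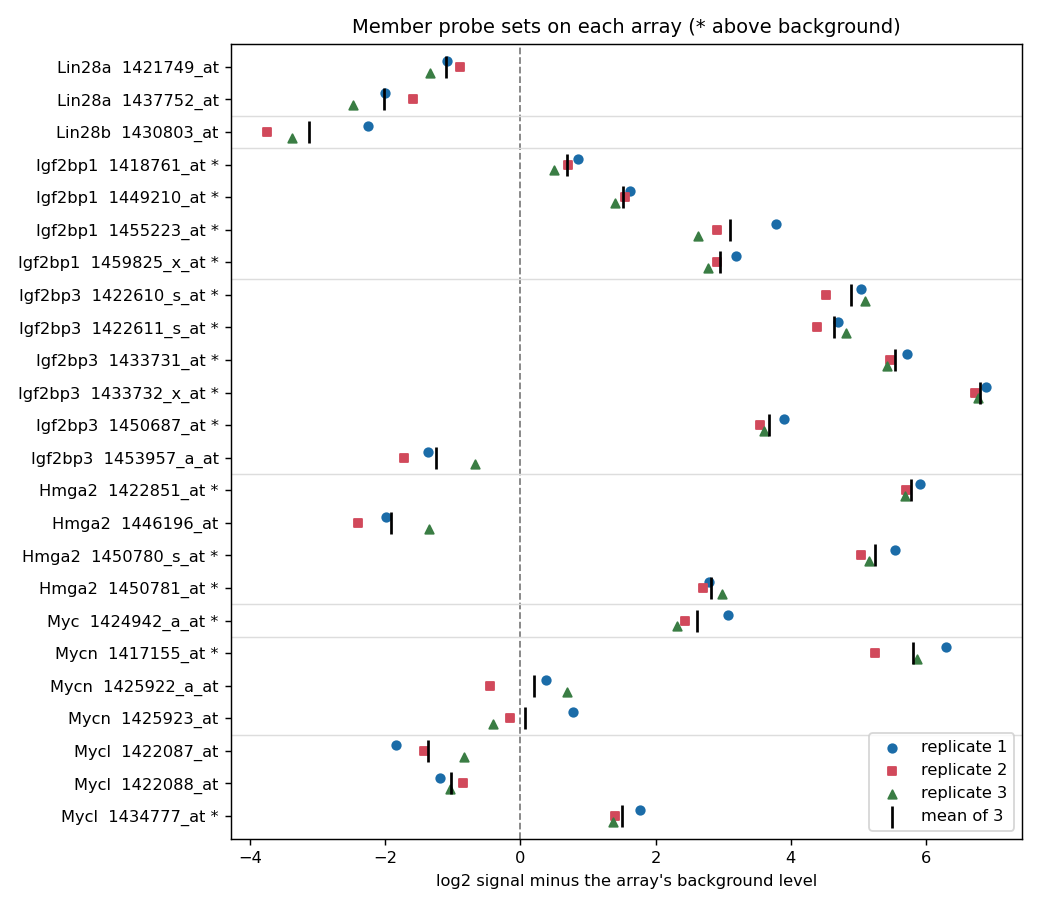
Distance of each of the 24 probe sets from the background level of its array (x axis, log2 units, dashed line at 0), with 1 symbol per array, a bar at the mean and an asterisk where the probe set was above background. All 3 probe sets of Lin28a and Lin28b lie left of the line on every array, while the 4 of Igf2bp1 lie right of it on every array.

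Neither Lin28 gene was above background. Lin28a, the form best known from pluripotent cells, gave signals of 63.3, 99.1 and 66.7 in replicates 1, 2 and 3 at probe set 1421749_at, all below the level of their own array. Its mean distance was -1.11 ± 0.22 log2 units (limma adjusted p = 1). The other Lin28a probe set, 1437752_at, gave 33.7, 61.2 and 30.1 and lay at -2.03 ± 0.27. Lin28b, the form known from nephron progenitors, has 1 probe set, 1430803_at, with signals of 28.3, 13.7 and 16.1. It lay at -3.13 ± 0.35 log2 units (limma adjusted p = 1), about 0.114 times the background level. On the whole array 38.4% of genes with 1 probe set and 66.7% of those with 2, as Lin28a has, were above background. No array of the 3 showed either gene above its level.

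Of 20 genes of let-7 and microRNA processing, 18 were above background, with a median distance of 5.10 log2 units for the list against 1.52 for all genes. Taking the mean over probe sets, 15 of the 20 were above background. For this and the later lists, the share above background over all genes was 56.4%. It was 79.5% for genes with 3 probe sets and 88.1% for those with 4 or more. Drosha and Dgcr8, which cut the primary transcript, lay at 7.39 ± 0.23 and 5.71 ± 0.25. Xpo5, which exports the precursor, lay at 3.73 ± 0.25, and Dicer1, which makes the mature form, at 5.29 ± 0.22. Tut4 and Tut7, the enzymes that add uridines to let-7 precursors held by Lin28, lay at 3.72 ± 0.23 and 6.33 ± 0.21 (both were named for this role, outside the naming rule). Drosha was above background at 2 of 3 probe sets, Dgcr8 at 3 of 4 and Tut4 at 3 of 5. Xpo5, Dicer1 and Tut7 were above at 2 of 2. The members not above background were Dis3l2, the nuclease that degrades such tailed precursors, at 0.48 ± 0.22 (limma adjusted p = 0.0937), and Trim71, a stem cell RNA-binding protein and let-7 target, at 0.23 ± 0.24 (limma adjusted p = 0.404).

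Igf2bp proteins bind messenger RNAs, among them that of Igf2, and govern where and how long these persist. Igf2bp3 was above background at 5 of its 6 probe sets. Genes with many probe sets have more chances of a call, and 88.1% of all genes with 4 or more were above background at the brightest. Its brightest, 1433732_x_at, gave signals of 16108, 19681 and 18495 in replicates 1, 2 and 3, a distance of 6.80 ± 0.21 log2 units (112-fold over the level, limma adjusted p = 1.36e-05). That probe set is of a type whose probes may bind other transcripts. A probe set without that mark, 1433731_at, gave 7133, 8243 and 7255, a distance of 5.54 ± 0.22 (limma adjusted p = 1.54e-05). The signals of both lay far above the level on every array. The probe sets 1422610_s_at, 1422611_s_at and 1450687_at, lay at 4.89 ± 0.24, 4.64 ± 0.22 and 3.69 ± 0.22. The exception was 1453957_a_at, with signals of 52.3, 55.8 and 106 and a distance of -1.26 ± 0.29.

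Igf2bp1, a paralogue of Igf2bp3, was above background at all 4 of its probe sets. On the whole array 25.0% of the 9010 genes with more than 1 probe set had every one above background. Of these, 4695 have only 2 probe sets, and the share for genes with 4 was not computed. At the brightest probe set, 88.1% of genes with 4 or more were above background. The brightest, 1455223_at, gave signals of 1865, 1386 and 1041 in replicates 1, 2 and 3, so replicate 1 was highest and replicate 3 lowest. Its distance was 3.11 ± 0.30 log2 units (8.62-fold, limma adjusted p = 0.000304). The next, 1459825_x_at, gave 1231, 1395 and 1153, a distance of 2.96 ± 0.22. Its signals did not share that order, but its distances on the 3 arrays did (3.19, 2.92 and 2.78). Probe set 1449210_at lay at 1.52 ± 0.21. The dimmest, 1418761_at, gave 243, 301 and 238 and lay at 0.68 ± 0.22 (limma adjusted p = 0.0318), and this call was lost without replicate 1, 2 or 3 (0.60, 0.68 and 0.78) and where the level was the 99th percentile (0.20). Measured against tissue-restricted genes it lay at -0.034.

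The proteins that share ribonucleoprotein particles with Igf2bp1 were all above background, 12 of 12 genes, with a median distance of 7.42 log2 units against 1.52 for all genes. Ybx1, a cold shock domain protein, lay at 7.50 ± 0.21, and Syncrip, Hnrnpu and the helicase Dhx9 lay at 7.01 ± 0.22, 8.54 ± 0.21 and 7.77 ± 0.21. These are general RNA-binding proteins of most cells. Of 8 measured transcripts known to be bound by Igf2bp proteins, 5 were above background (62.5%, near the 56.4% of all genes). The growth factor Igf2 lay at 7.07 ± 0.21, the actin gene Actb at 6.62 ± 0.23, the adhesion receptor Cd44 at 2.89 ± 0.24, the ubiquitin ligase subunit Btrc at 3.50 ± 0.25 and the hedgehog effector Gli1 at 2.19 ± 0.24. Cd44 was above background at 2 of 4 probe sets and Btrc at 1 of 5, while Igf2, Actb and Gli1 were above at all of theirs. Ptgs2 (-3.29 ± 0.49), the drug transporter Abcb1a (0.52 ± 0.25, limma adjusted p = 0.0996) and Mapk4 (-0.28 ± 0.21) were not. Taking the mean over a gene's probe sets, 3 of these 8 were above background.

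Hmga2, an AT-hook protein that bends DNA and is a classic let-7 target, was above background at 3 of 4 probe sets. Of all genes with 4 or more probe sets, 88.1% were above background at the brightest. Probe set 1422851_at gave signals of 8173, 9702 and 8754 in replicates 1, 2 and 3. It lay at 5.78 ± 0.21 log2 units (54.9-fold, limma adjusted p = 1.44e-05). A second, 1450780_s_at, gave 6308, 6073 and 6031 and lay at 5.25 ± 0.23, and 1450781_at gave 929, 1204 and 1338 and lay at 2.83 ± 0.22. In signal, the 3 arrays were close to each other at 1422851_at and 1450780_s_at. After each array was centred on its median signal, the SD there was 0.19 and 0.23 log2 units, against 0.098 at 1450781_at. The probe set not above background, 1446196_at, gave 33.8, 34.9 and 66.1, at -1.92 ± 0.29. Other high mobility group genes were above background in 5 of 7 measured cases (71.4%, against 56.4% of all genes), with a median of 5.21 log2 units. Those above were Hmgb2 at 5.21 ± 0.25, Hmgb3 at 7.61 ± 0.23, Hmgn1 at 8.86 ± 0.21, Hmgn3 at 6.81 ± 0.24 and Hmgn5 at 3.78 ± 0.26. Hmg20b (-1.48 ± 0.34) and Tox (-0.20 ± 0.30) were not.

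All 3 Myc family genes were above background, each at 1 probe set. Over the whole array that share was 79.5% for genes with 3 probe sets, as Mycn and Mycl have, and 38.4% for genes with 1, as Myc has. Mycn, the member that kidney progenitors are known for, gave signals of 10599, 7001 and 9890 in replicates 1, 2 and 3 at probe set 1417155_at, lowest in replicate 2. The distance was 5.81 ± 0.29 log2 units (55.9-fold, limma adjusted p = 2.56e-05). Its other 2 probe sets were not above background. Signals at 1425922_a_at were 174, 134 and 270, a distance of 0.20 ± 0.30 (limma adjusted p = 0.569), above the level on 2 of 3 arrays. Signals at 1425923_at were 232, 166 and 127, a distance of 0.07 ± 0.31 (limma adjusted p = 0.850), above it on 1. The Mycn call therefore rests on 1 of 3 probe sets.

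Myc, the family member of most dividing cells and an immediate early gene, gave signals of 1132, 1002 and 836 at its probe set, 1424942_a_at. It lay at 2.61 ± 0.26 log2 units above background (6.09-fold, limma adjusted p = 0.000307), with replicate 1 highest and replicate 3 lowest. Whether the warm trypsin step changed the Myc signal was not tested. Mycl gave 461, 485 and 433 at probe set 1434777_at, close to each other in signal, and lay at 1.51 ± 0.22 (2.85-fold, limma adjusted p = 0.00171). Its distances on the 3 arrays were 1.77, 1.39 and 1.36. Signals at its other probe sets were 37.8, 68.8 and 94.5 at 1422087_at and 58.8, 103 and 81.7 at 1422088_at, below the level on every array (-1.37 ± 0.28 and -1.03 ± 0.22). Taking the mean over its probe sets, Mycl lay at -0.29 and was not above background.

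Of 10 partners and antagonists of Myc, 8 were above background, against 56.4% of all genes. Their median distance was 3.35 log2 units, against 1.52 for all genes. Mnt and Mxd1, repressors that compete for Max, lay at 3.13 ± 0.21 and 3.57 ± 0.25, Mxi1, of the same class, at 4.49 ± 0.24 and the large Max-binding repressor Mga at 5.37 ± 0.21. Mnt was above background at 1 of 2 probe sets, Mxd1 at 1 of 3, Mxi1 at 2 of 2 and Mga at 1 of 5. Max, the partner that every Myc protein needs to bind DNA, has 1 probe set, with signals of 271, 121 and 169 in replicates 1, 2 and 3, above the level in replicate 1 and barely so in replicate 3. It lay at 0.13 ± 0.37 and was not above background (limma adjusted p = 0.759). Mlxipl, a glucose-responsive factor of liver and fat, lay at -0.03 ± 0.26. Taking the mean over probe sets, 5 of the 10 were above background.

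All 15 measured cofactors and regulators of Myc stability were above background (median 4.68 log2 units), among them the scaffold Trrap at 4.30 ± 0.27, the ATPases Ruvbl1 and Ruvbl2 at 5.67 ± 0.25 and 2.90 ± 0.26 and the acetyltransferase Kat5 at 1.96 ± 0.24. All 20 genes known as Myc targets were above background too, with a median of 6.25 log2 units against 1.52 for all genes. The polyamine enzyme Odc1 lay at 7.53 ± 0.22, the nucleolar proteins Ncl and Npm1 at 7.72 ± 0.23 and 8.40 ± 0.22, and the rRNA methyltransferase Fbl at 5.84 ± 0.26. Most genes of both lists are active in any dividing cell, and no group without Myc was measured, so these levels do not show which Myc protein, if any, acts on them.

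**Figure D2:**
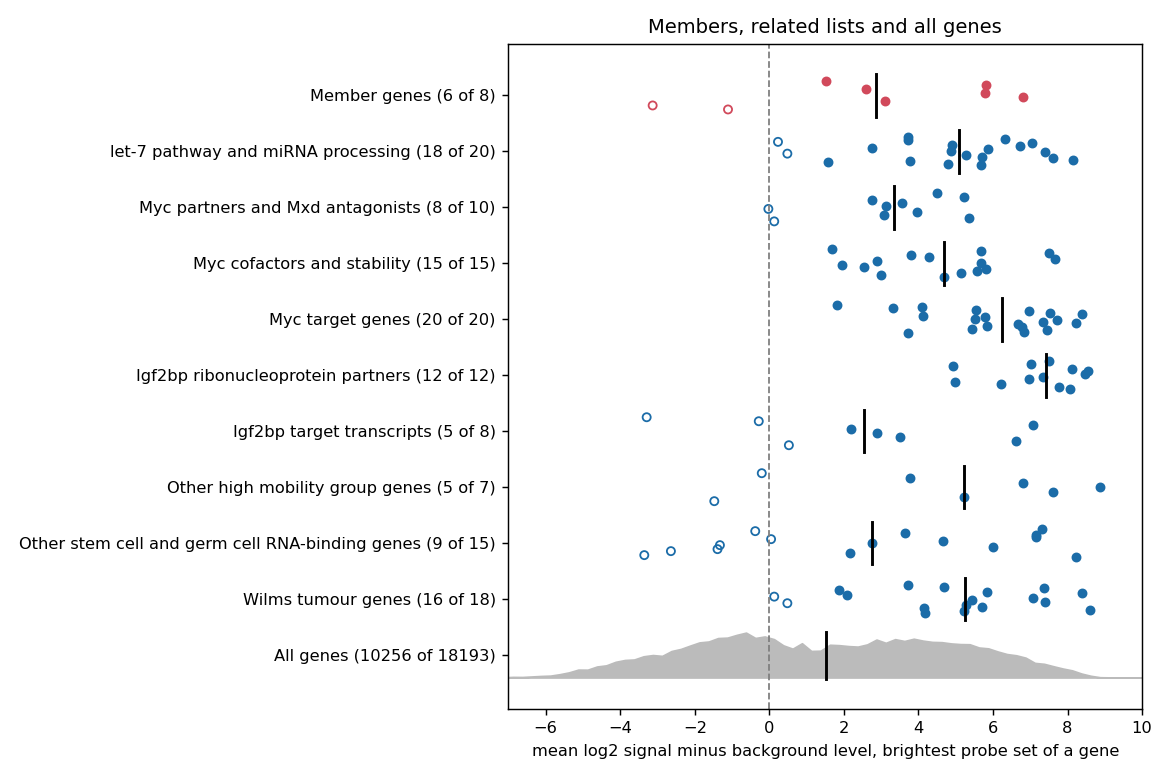
Distance from background of each measured gene at its brightest probe set (x axis, log2 units), for the member genes, 9 related lists and all genes, with filled points above background, open points not above it, black bars at the median and counts above background in brackets. The grey outline is the distribution of all 18193 genes, with its median at 1.52, and the 2 open points of the member genes are Lin28a and Lin28b.

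Promoters bear on the Myc genes through the E-box. The letters CACGTG, which read the same on both strands, were searched in the window from 250 bases before to 50 after each gene's start in the RefSeq promoter table (GRCm38.p6). The motif is present in 7.15% of all 32851 promoters and in at least 1 promoter of 8.09% of genes. Among the 10 genes of this group 8 have a promoter in the table, and 2 of these hold the motif. They are Igf2bp3, which was above background, and Lin28b, which was not. Of the Myc target genes 16 have a promoter in the table and 5 hold the motif. The promoters of Igf2bp3 and Lin28b are shown as the 2 in this group with the motif, and that of the Myc target Cdk4, the cell cycle kinase, as one with 4 copies. Capitals mark CACGTG.
Igf2bp3, chr6:49214905-49215204, minus strand: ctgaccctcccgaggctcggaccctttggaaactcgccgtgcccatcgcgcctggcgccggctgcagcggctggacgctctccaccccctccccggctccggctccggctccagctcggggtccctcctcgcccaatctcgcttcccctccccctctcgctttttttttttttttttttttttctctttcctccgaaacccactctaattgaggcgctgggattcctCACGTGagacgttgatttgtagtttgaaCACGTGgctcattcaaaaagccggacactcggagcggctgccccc
Lin28b, chr10:45470152-45470451, minus strand: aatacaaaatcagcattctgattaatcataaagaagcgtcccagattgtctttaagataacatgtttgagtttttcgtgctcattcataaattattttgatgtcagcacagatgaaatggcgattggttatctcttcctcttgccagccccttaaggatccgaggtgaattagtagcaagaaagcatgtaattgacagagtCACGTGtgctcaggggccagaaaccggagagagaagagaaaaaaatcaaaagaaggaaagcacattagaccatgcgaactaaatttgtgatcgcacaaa
Cdk4, chr10:127063285-127063584, plus strand: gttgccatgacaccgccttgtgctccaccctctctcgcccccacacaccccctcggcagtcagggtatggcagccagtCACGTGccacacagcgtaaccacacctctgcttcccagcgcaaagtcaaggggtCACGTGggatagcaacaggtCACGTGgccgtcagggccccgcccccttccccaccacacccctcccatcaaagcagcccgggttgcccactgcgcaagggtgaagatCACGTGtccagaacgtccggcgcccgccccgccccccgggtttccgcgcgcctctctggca
Cdk4 lay 7.44 ± 0.25 log2 units above background. A match is only a run of letters, and whether a Myc protein binds there was not measured.

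The spread over the arrays depended on how they were aligned, since they share a trimmed mean signal but have medians of 143, 162 and 187. After each array was centred on its median, the SD over the 3 arrays had a median of 0.23 log2 units over the 15 probe sets above background, against 0.27 over all 18907 such probe sets on the array. With no centring the medians were 0.19 and 0.18, so the lower spread of these genes did not hold. Igf2bp1 1455223_at varied most in both, with an SD of 0.61 centred and 0.42 uncentred, and Mycn 1417155_at had 0.39 and 0.32. Other probe sets changed place. Igf2bp3 1422611_s_at had the lowest centred SD, 0.05, but 0.23 uncentred, and Hmga2 1450780_s_at had the lowest uncentred SD, 0.035, but 0.23 centred. Myc had 0.41 centred and 0.22 uncentred. Probe sets of 1 gene share their RNA and are not independent.

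**Figure D3:**
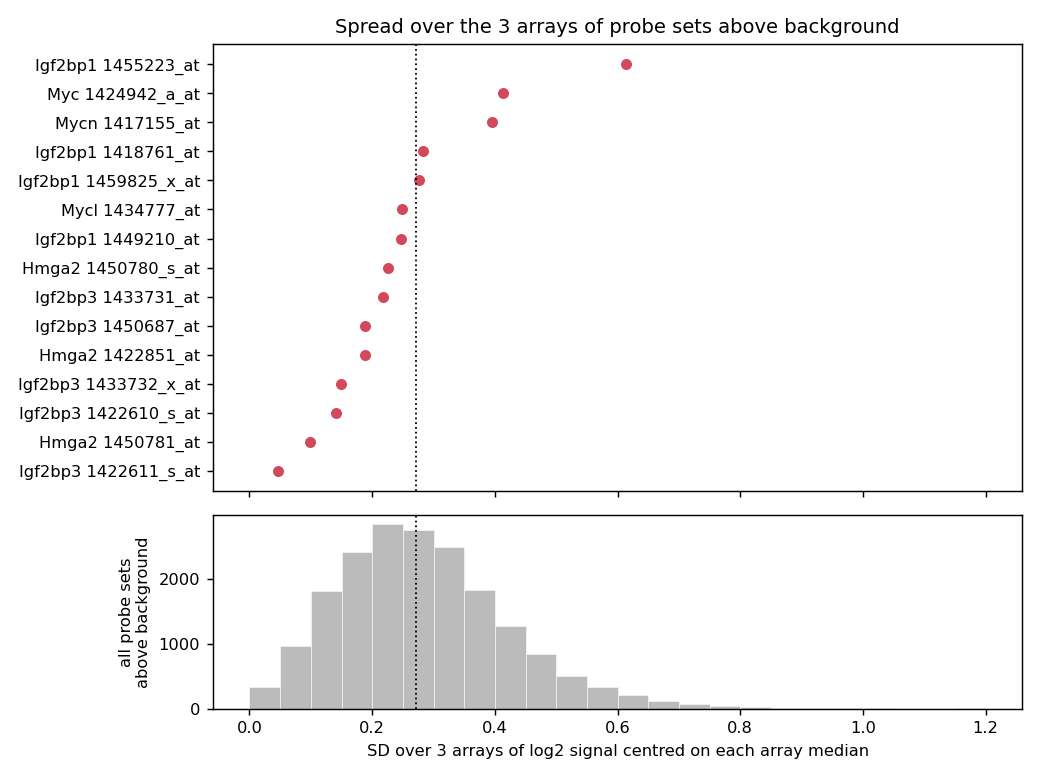
SD over the 3 arrays of the centred log2 signal (x axis) for the 15 probe sets of these genes above background (upper panel, 1 point each) and for all probe sets above background (lower panel, number of probe sets, drawn up to 1.2). The dotted line is the median of all of them, 0.27, and the points run from 0.05 for Igf2bp3 1422611_s_at to 0.61 for Igf2bp1 1455223_at.

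Other RNA-binding genes of stem and germ cells were above background in 9 of 15 measured cases (60%), near the 56.4% of all genes. Their median was 2.76 log2 units, against 1.52 for all genes. With the mean over probe sets the count was 7 of 15. The Musashi genes Msi1 and Msi2 lay at 2.76 ± 0.22 and 4.67 ± 0.23, the translational repressor Pum2 at 7.16 ± 0.22 and the helicase Ddx6 at 5.99 ± 0.24. Msi1 was above background at 1 of 3 probe sets, Msi2 at 3 of 8, Pum2 at 2 of 4 and Ddx6 at 4 of 4. The germ cell genes Nanos1 (0.05 ± 0.34, limma adjusted p = 0.913) and Dazl (-2.64 ± 0.25) were not. Of 18 measured genes known for mutation or overexpression in Wilms tumour, 16 were above background (88.9%, against 56.4% of all genes). This list overlaps the microRNA one. The tumour suppressor Wt1 lay at 4.68 ± 0.30, beta-catenin (Ctnnb1) at 8.60 ± 0.21, its inhibitor Amer1 at 4.17 ± 0.24 and Six2, a factor of nephron progenitors, at 1.86 ± 0.22. Max and Dis3l2 were the 2 not above background.

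The labelled cell type was checked against its markers. All 12 markers of the nephrogenic interstitium were above background, with Foxd1 at 7.47 ± 0.22 and Meis1 at 6.84 ± 0.23. Meis1 is no independent check, because its control elements drove the protein used for sorting. Markers of cap mesenchyme, the nephron progenitors beside it, were above in 6 of 10 cases, with summed signals of 37202 to 39717 on the 3 arrays. Most of that sum is Gdnf (24382 to 28877). Also above background were Itga8 (6060 to 8347), Eya1 (1513 to 2331), Meox1 (864 to 1182), Six2 (508 to 692) and Crym (264 to 442). The defining marker Cited1 was not (7.70 to 9.67), nor were Osr1, Tmem100 and Hoxd11. Markers were above in 4 of 10 cases for the ureteric bud, 3 of 8 for the early nephron and 6 of 9 for endothelium. The highest of each of these lists were Epcam at 4.13 ± 0.26, Ccnd1 at 6.79 ± 0.24 and Tek at 2.86 ± 0.21. Over all genes the share above background was 56.4%, and cap mesenchyme (60%) and endothelium (66.7%) were not below it. The counts were 3 of 6 for neural cells, 1 of 8 for erythroid cells (Epor), 1 of 10 for macrophages and leukocytes (Csf1r) and 1 of 6 for adrenal cortex (Mc2r). The part of such cells in the Mycn, Hmga2 and Igf2bp signals was not tested.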

How the data were processed

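The authors deposited 1 linear intensity value for each probe set of each 1-colour array. RNA was amplified in 2 rounds, per the labels' protocols. The submitters' processing notes name GCOS. Version, signal algorithm and scaling: not given in the sources used here. A mean signal without the lowest and highest 2% of probe sets was 1500.01 on all 3 arrays, so the arrays had been scaled alike. All values were above 0, and log2 needed no pseudocount.

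Of 45101 probe sets, 64 controls were left out. Genes were named from the platform annotation (34945 probe sets with 1 symbol, 932 with several, 9160 with none), with symbols checked against a RefSeq table (34741 Entrez IDs matched, none changed). Each array has its own background level, the 95th percentile over 72 chemosensory receptor genes. Log2 signal minus that level was tested above 0 with limma 3.58.1 in R 4.3.3 (lmFit, eBayes) in a one-sided test, Benjamini-Hochberg adjusted over all 45037 probe sets at a threshold of 0.05. A gene takes its brightest probe set by mean log2 signal. SE and p also carry the spread of the 3 levels. The number of arrays limits the precision, and since nothing says that the pools came from separate litters, p-values measure only the spread between samples and this may be technical. Probe sets of the types s, x and a may bind more than 1 transcript.

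The members and lists were chosen with earlier results of these data known. Named were all members with each probe set, from each related list its first 4 called genes and its first 2 uncalled ones, and all genes of a count of 5 or fewer in those lists. Marker genes of cell types, Tut4, Tut7, Cdk4 and Mir99ahg fall outside that rule. Alternatives were 14 other settings of the level, scaling, filter, test, probe sets and arrays.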

Additional observations from a re-analysis of the deposited data

How the results depend on the processing

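Few arrays limit every value. The count of genes above background was 6 in 12 of 14 alternatives. It was 5 of 7 without probe sets of the types s, x and a. Myc then has no probe set left, since its only one is of type a. With the mean over probe sets the count was 5 of 8, where Mycl lay at -0.29. The count of probe sets above background, which 1 probe set a gene and means over probe sets do not give, was 15 in 6 of 12 alternatives and 14 at the 99th percentile, with a level from tissue-restricted genes and without replicate 1, 2 or 3. It was 9 of 16 when probe sets of the types s, x and a were left out, which tests fewer. Related list genes above background numbered 88 (of 105 tested) to 105, against 103 of 118. With the mean over probe sets the count was 91 of 118. Of 286 distances of single probe sets recomputed, 275 kept their sign and call. Those that changed sign were Igf2bp1 1418761_at with a level from tissue-restricted genes (-0.034), Mycn 1425922_a_at at the 99th percentile (-0.29), with tissue-restricted genes (-0.52) and without replicate 3 (-0.044, against 0.53 without replicate 2), and Mycn 1425923_at at the 99th percentile (-0.42), with tissue-restricted genes (-0.65) and without replicate 1 (-0.28, against 0.31 without replicate 3). A higher level lowers every distance, and neither of these Mycn probe sets was above background to begin with. Part of the 286 came from settings that leave each mean distance as it was and could change only the call. They were 1 level for all arrays (24), the dimmest probe sets left out (22) and a call above the level on every array (24). The others were 1 probe set a gene (8) and no probe sets of the types s, x and a (16). The median SD over the arrays was 0.19 with no centring and 0.21 with quantile normalization, against 0.23. Of the Myc target genes, 13 of 14 were above background without probe sets of the types s, x and a. Marker counts of other cell types moved too. The erythroid count was 0 of 8 at the 99th percentile, with tissue-restricted genes and without replicate 1 or replicate 3. The leukocyte count was 2 of 10 at the 90th percentile and 0 at the 99th, with tissue-restricted genes and with means over probe sets. The neural count was 0 of 6 with means over probe sets, and the endothelial one 3 of 9, against 6, with tissue-restricted genes. The adrenal cortex count, 1 of 6, was 3 at the 90th percentile and 2 with 1 level for all arrays, quantile normalization, log2(signal + 16), a call above the level on every array, 1 probe set a gene and the dimmest probe sets left out (of 5 tested). No paired analysis was possible because the arrays form 1 group.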

Other observations

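Mir99ahg, the host transcript of 1 of the let-7c loci, was looked up because the let-7 microRNAs themselves were not measured. Probe set 1445363_at gave signals of 298, 449 and 370 in replicates 1, 2 and 3 and lay 1.19 ± 0.21 log2 units above background (limma adjusted p = 0.00353). Probe set 1431424_at gave 111, 108 and 194 and was not above background (-0.29 ± 0.28). A host transcript does not give the level of the mature microRNA.

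Probe sets of 1 gene disagreed widely. The distance from the lowest to the highest spanned 8.06 log2 units for Igf2bp3, 7.70 for Hmga2 and 5.73 for Mycn, against 2.88 for Mycl and 2.42 for Igf2bp1. Over all 3598 genes above background with 3 or more probe sets the median span was 5.44. Among these genes the Igf2bp3 and Hmga2 spans lay at percentiles 83.9 and 80.4, wider than most, and Mycn at 54.6. Mycl and Igf2bp1 lay at 14.5 and 10.5.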
